A study of Mus musculus with 18 samples.

Results

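The tricarboxylic acid (TCA) cycle burns acetyl-CoA in the mitochondrial matrix, releasing carbon dioxide and passing electrons to NADH and FADH2 for respiration. In the fasted liver the same ring of enzymes also turns carbon from amino acids and pyruvate into oxaloacetate for glucose synthesis. Riboflavin (vitamin B2) is the precursor of FAD, and Dld, the last subunit of the oxoglutarate dehydrogenase complex, carries FAD. The genes described here are 9 enzyme genes of the cycle chosen by name (Cs, Idh3a, Idh3b, Idh3g, Ogdh, Dlst, Dld, Suclg1 and Fh1), out of 54532 genes listed in each table of the series. All 9 had a mean of at least 0.5 FPKM (a read count divided by gene length and a normalized library size), the level needed to enter the tests.

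Liver mRNA was sequenced from wild-type C57BL/6J male mice, 1 library per mouse, placed on the diets at 1 month of age and fasted overnight before harvest. In the first experiment 5 mice were given an isocaloric control diet (Ctrl) and 5 a B2-deficient diet (B2D) for 1 month. In the second experiment 4 mice were given the control diet (Ctrl+FF) and 4 the B2-deficient diet (B2D+FF) for 9 weeks. Both of its groups received fenofibrate, a drug that activates the nuclear receptor PPARα, in weeks 7 to 9 and again 2 hours before harvest, so no mouse had 9 weeks of diet without the drug. Drug, time on the diet and table change together and cannot be told apart, and the tables were scaled separately, so levels with and without fenofibrate are set side by side with no test. Mice are numbered within each group.

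Reads on genes were 17134133 to 21266792 in Ctrl, 15320729 to 19598461 in B2D, 16290762 to 17386688 in Ctrl+FF and 16947517 to 21898502 in B2D+FF. Hepatocyte markers summed to at least 19443 FPKM in every library, while striated muscle markers summed to at most 1.99 and pancreas markers to at most 0.401. Any pair of mice within a group correlated at 0.958 to 0.990 (Pearson, log2(FPKM + 1)).

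Without fenofibrate, no TCA cycle enzyme gene passed the test between B2D and Ctrl, and for all 9 the values of the 2 diets overlapped. With fenofibrate, all 9 had a higher mean in B2D+FF than in Ctrl+FF, and 2 passed: Idh3a, the catalytic subunit of NAD-dependent isocitrate dehydrogenase, was 1.80-fold higher in mean FPKM, and Fh1, fumarase, was 1.63-fold higher. The difference between the diet effects of the experiments was above 0 for all 9 genes, but none passed the test of that difference.

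**Figure D1:**
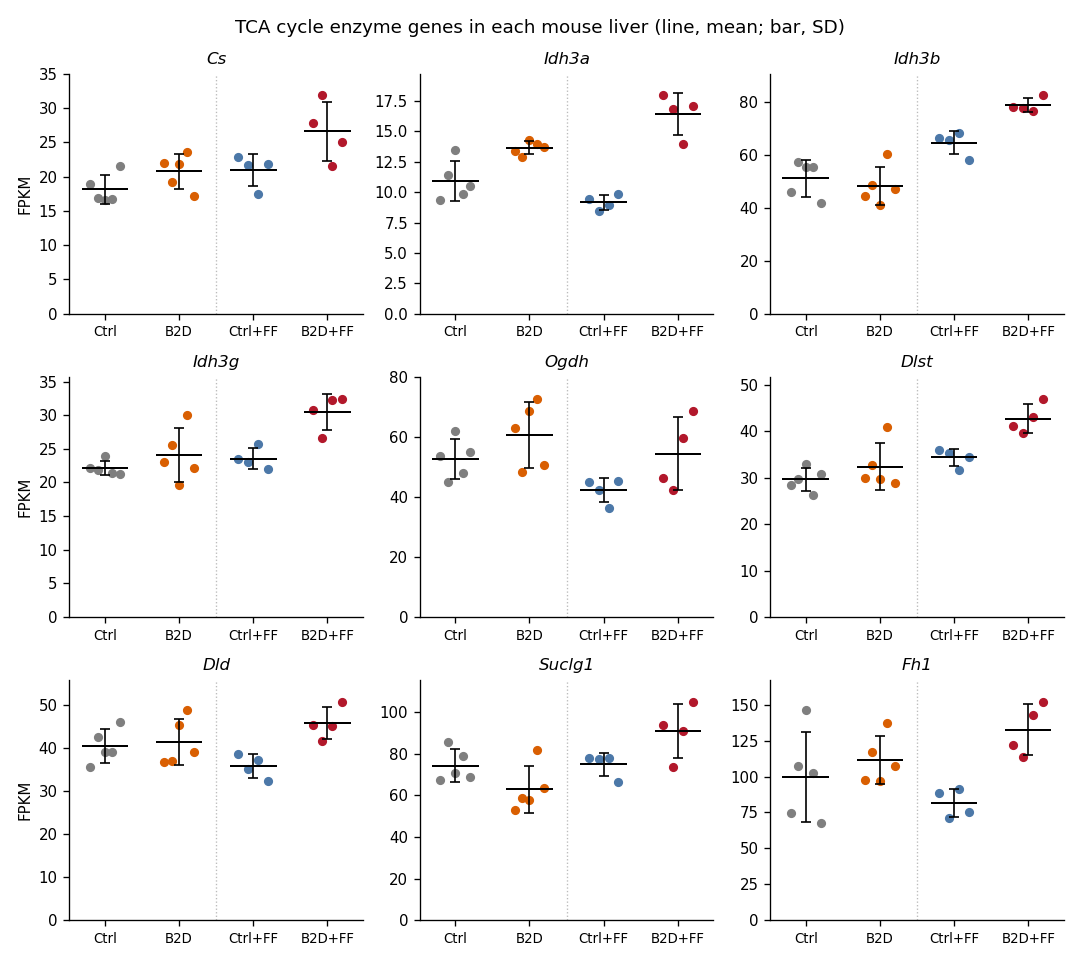
FPKM (vertical axis, from 0, a separate scale for each gene) of the 9 TCA cycle enzyme genes in each mouse liver of the 4 groups, each point a mouse, with the group mean as a line and the SD as a bar. The dotted line separates the experiments. The 4 B2D+FF mice lie above all 4 Ctrl+FF mice for Idh3a, Idh3b, Idh3g, Dlst, Dld and Fh1, whereas B2D and Ctrl mice overlap for every gene.

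Among the 11574 genes tested by limma on log2(FPKM + 1) in the first experiment, 2.7% passed a Benjamini-Hochberg adjusted p of 0.05 in either direction, against 0 of the 9 cycle genes. Taken without adjustment, 18.4% of genes and 1 of the 9, Idh3a, had a p under 0.05. The fold change was above 0 for 7 of the 9, as it was for 49.8% of genes tested, with a median log2 fold change of 0.12 for the cycle genes and -0.0013 for all genes. Among genes with a mean of at least 5 FPKM, the fold change was above 0 for 2049 of 4872, with a median of -0.045. For none of the 9 did the groups separate, a pattern seen upward in 2.08% and downward in 2.89% of genes.

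Among the 11878 genes tested in the second experiment, 2.24% were higher in B2D+FF at the same threshold and 2.21% lower. Of the cycle genes, 2 were higher and 0 lower. Every B2D+FF mouse was above every Ctrl+FF mouse for 6 of the 9, against 7.82% of genes tested, and the reverse, seen in 6.44% of genes, held for 0 of the 9. A fold change above 0 was found for 9 of 9, against 52.8% of all genes. Among genes with a mean of at least 5 FPKM, it was above 0 for 2983 of 4948. The median log2 fold change of the 9 was 0.33, against 0.013 over all genes and 0.052 over genes with a mean of at least 5 FPKM. An unadjusted p under 0.05 with a rise was seen for 7 of the 9 and for 11.3% of all genes. Summed over the 9 genes, FPKM was 356 to 461 in Ctrl and 384 to 509 in B2D, which overlap, and 366 to 408 in Ctrl+FF and 464 to 581 in B2D+FF, which do not.

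**Figure D2:**
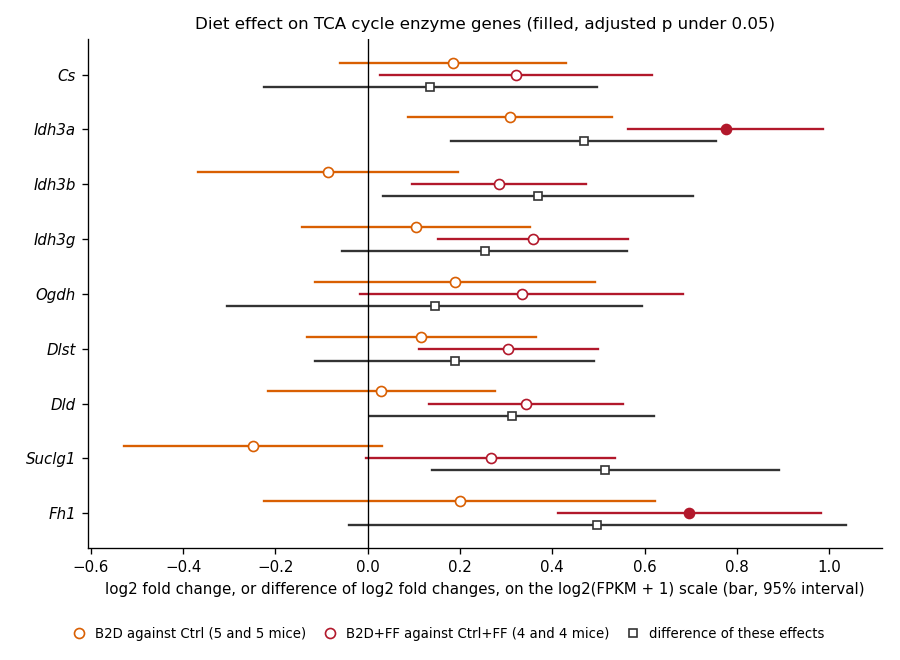
Log2 fold change of the B2-deficient against the control diet for each TCA cycle enzyme gene, on the log2(FPKM + 1) scale, without fenofibrate (orange), with it (red), and the difference between these effects (black squares), with 95% confidence intervals from limma. Filled symbols mark an adjusted p under 0.05, reached by Idh3a (0.78) and Fh1 (0.70) with fenofibrate, while the other red points lie between 0.27 and 0.36.

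Cs encodes citrate synthase, which joins acetyl-CoA and oxaloacetate at the entry of the cycle (ENSMUSG00000005683, chromosome 10 of GRCm38, 128337734 to 128362479, plus strand). Its FPKM was 18.9, 16.9, 16.6, 16.8 and 21.5 in Ctrl mice 1 to 5 and 21.95, 19.3, 21.9, 23.6 and 17.1 in B2D mice 1 to 5. With fenofibrate it was 22.8, 21.7, 17.5 and 21.9 in Ctrl+FF and 27.9, 31.8, 21.5 and 25.1 in B2D+FF. Groups overlapped in both experiments: with the drug, B2D+FF 3 lay within the control range and the other 3 lay above it. The log2 fold changes of 0.19 (standard error 0.112) and 0.32 (0.131) had limma adjusted p-values of 0.3995 and 0.1997.

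Idh3a, Idh3b and Idh3g encode the subunits of NAD-dependent isocitrate dehydrogenase, the step that makes 2-oxoglutarate and NADH. The alpha subunit holds the active site, and the beta and gamma subunits assemble with it and take part in its allosteric control. Idh3a (ENSMUSG00000032279) lies on chromosome 9 from 54586334 to 54604661 on the plus strand. Its FPKM was 9.46, 8.46, 8.92 and 9.85 in Ctrl+FF and 17.96, 16.8, 14.0 and 17.1 in B2D+FF, from 706 to 1774 reads per library. The groups were far apart, and the lowest B2D+FF mouse stood above the highest Ctrl+FF mouse. The mean went from 9.17 ± 0.611 to 16.5 ± 1.73 (SD, n = 4 and 4), 0.78 ± 0.0940 (standard error) on the log2 scale, with a limma adjusted p of 0.00391. It passed whichever of the 8 mice was left out, with adjusted p from 0.00255 to 0.0192. Without fenofibrate, Idh3a was 9.36, 11.4, 13.5, 9.85 and 10.5 in Ctrl and 13.4, 12.9, 14.3, 14.0 and 13.7 in B2D. All 5 B2D mice were above the Ctrl median, but Ctrl 3 reached into their range. The log2 fold change was 0.31 (95% interval 0.09 to 0.53) with a limma adjusted p of 0.138, and its unadjusted limma p was 0.0105.

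Idh3b (ENSMUSG00000027406, chromosome 2, 130279309 to 130284547, minus strand) was 66.3, 65.8, 68.4 and 58.3 FPKM in Ctrl+FF and 78.3, 77.9, 76.8 and 82.6 in B2D+FF. These groups separated with a narrow spread, and the log2 fold change of 0.28 (standard error 0.0838) had a limma adjusted p of 0.0896. Without the drug its values were 46.0, 57.4, 55.7, 55.5 and 41.8 in Ctrl and 44.6, 48.6, 41.0, 60.3 and 47.0 in B2D, a log2 fold change of -0.09 (95% interval -0.37 to 0.20) in overlapping groups. Its exons share 5 bases with those of Nop56 on the opposite strand, which is 0.146% of its exon length. Idh3g (ENSMUSG00000002010, chromosome X, 73778963 to 73786897, minus strand) was 23.5, 23.0, 25.6 and 22.1 in Ctrl+FF and 30.7, 26.6, 32.2 and 32.5 in B2D+FF. The B2D+FF mouse nearest the controls, mouse 2, was still above all of them, and the log2 fold change of 0.36 (standard error 0.0915) came closest of the remaining genes to the threshold, with a limma adjusted p of 0.0599. It passed in 6 of 17 alternatives, among them a mean of at least 5 FPKM (0.0417), quantile normalization (0.0465), array weights (0.0196) and voom (0.0464). Without fenofibrate Idh3g was tight in Ctrl, at 21.2 to 23.9, and spread from 19.6 to 30.1 in B2D, where only mice 2 and 4 exceeded the controls.

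The level of Idh3a relative to Idh3b, taken within each mouse so that library scaling cancels, was higher on the B2-deficient diet in each experiment before correction for the number of ratios tested. The ratio of FPKM was 0.203, 0.1995, 0.242, 0.178 and 0.251 in Ctrl and 0.3005, 0.266, 0.349, 0.232 and 0.292 in B2D. It was 0.142, 0.129, 0.130 and 0.169 in Ctrl+FF and 0.229, 0.216, 0.182 and 0.207 in B2D+FF. With fenofibrate all 4 B2D+FF mice lay above all 4 controls, while without it B2D 4 lay within the control range. The mean log2 ratio differed by 0.42 without the drug (exact permutation test, two-sided, p = 0.0238) and by 0.55 with it (exact p = 0.0286, the smallest that 4 against 4 mice allow). Over the 12 ratio tests, both had a Benjamini-Hochberg adjusted exact p of 0.171. With 4 against 4 mice, the smallest exact p could pass this adjustment only if most of the 12 tests were as small. Standing alone, the smallest that 5 against 5 mice allow (0.00794) would not have passed either. The adjusted p with fenofibrate thus cannot decide whether this ratio differed between the diets. The ratio of Idh3a to Idh3g differed by 0.47 on the log2 scale with fenofibrate (exact permutation p = 0.0571, adjusted 0.229), and Idh3b relative to Idh3g by -0.20 without it (exact permutation p = 0.0794, adjusted 0.238).

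**Figure D3:**
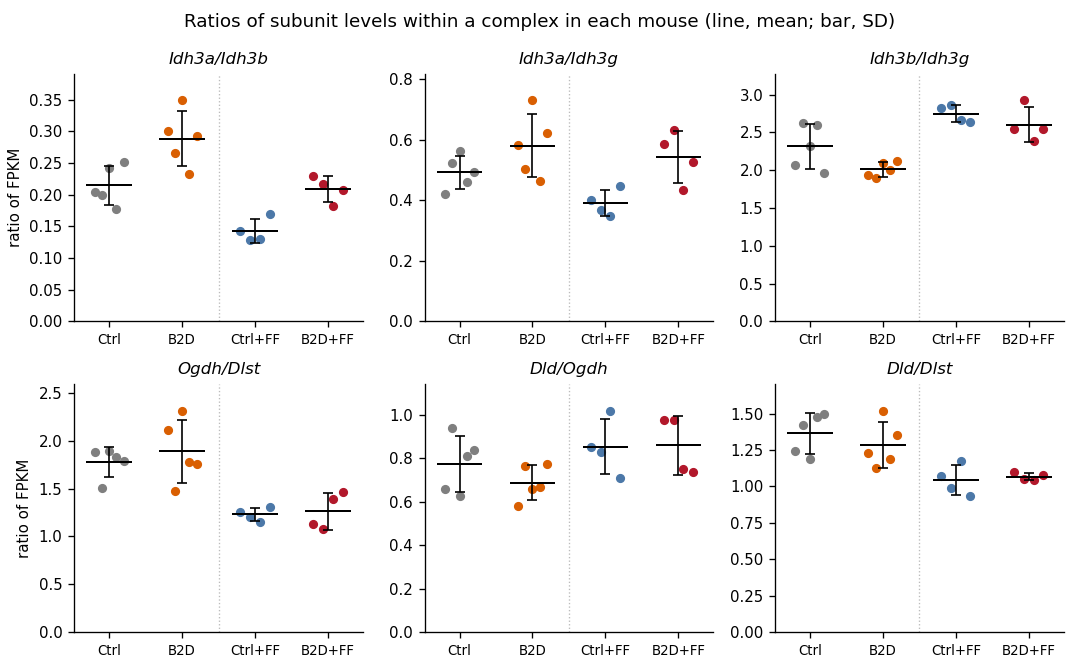
Ratio of FPKM between subunit genes of a complex in each mouse (vertical axis, from 0), for the isocitrate dehydrogenase subunits (top) and the oxoglutarate dehydrogenase subunits (bottom), with the mean as a line and the SD as a bar. The Idh3a to Idh3b ratio runs from 0.182 to 0.229 in B2D+FF and from 0.129 to 0.169 in Ctrl+FF, and the lower panels show overlapping groups.

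Ogdh, Dlst and Dld encode the E1, E2 and E3 subunits of the oxoglutarate dehydrogenase complex, which makes succinyl-CoA. E1 uses thiamine diphosphate, E2 carries lipoate, and E3, the flavoprotein Dld, reoxidises the lipoate through FAD and hands the electrons to NAD. Dld also serves the pyruvate, branched-chain keto acid and glycine cleavage complexes. Dld (ENSMUSG00000020664) lies on chromosome 12 from 31331277 to 31351453 on the minus strand, and 2013 to 3822 reads per library were counted on it. Without fenofibrate its FPKM was 35.4, 42.4, 39.0, 38.9 and 46.0 in Ctrl and 36.7, 36.9, 45.2, 48.7 and 39.0 in B2D. The groups lay over each other, with means of 40.3 ± 4.01 and 41.3 ± 5.39 (SD, n = 5 and 5). The log2 fold change was 0.03 with a 95% interval of -0.22 to 0.28 (limma adjusted p = 0.916), and its sign turned to -0.03 without B2D 4.

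With fenofibrate, Dld was 38.6, 35.1, 37.2 and 32.3 FPKM in Ctrl+FF and 45.3, 41.6, 45.0 and 50.6 in B2D+FF. All 4 B2D+FF mice exceeded all 4 controls, with means of 35.8 ± 2.74 and 45.6 ± 3.73 (SD, n = 4 and 4). The log2 fold change of 0.34 (95% interval 0.13 to 0.55) had a limma adjusted p of 0.0726 and so did not pass. Of 17 alternatives, Dld passed in 3: quantile normalization (limma adjusted p = 0.0379), array weights (0.0374) and the unadjusted p. With a mouse left out it passed in 0 of 8 fits, with limma adjusted p from 0.0643 to 0.191.

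Ogdh (ENSMUSG00000020456, chromosome 11, 6291633 to 6356642, plus strand) had the widest spread for its mean among B2D+FF mice, at 46.5, 42.5, 59.9 and 68.9 FPKM in B2D+FF against 45.1, 42.4, 36.5 and 45.3 in Ctrl+FF. Mice 3 and 4 of B2D+FF were well above the controls, mouse 1 just above and mouse 2 within their range. This gave a log2 fold change of 0.33 ± 0.155 (standard error) and a limma adjusted p of 0.256. Without the drug it was 53.6, 45.0, 62.2, 48.1 and 55.0 in Ctrl and 63.1, 48.2, 68.8, 72.9 and 50.6 in B2D, again overlapping (0.19, adjusted p = 0.491 by limma). Dlst (ENSMUSG00000004789, chromosome 12, 85110833 to 85134845, plus strand) was 35.9, 35.4, 31.7 and 34.6 in Ctrl+FF and 41.3, 39.7, 43.0 and 47.1 in B2D+FF. Its groups separated, and the log2 fold change of 0.30 (standard error 0.0861) had a limma adjusted p of 0.0810. Without fenofibrate Dlst was 26.3 to 32.9 in Ctrl and 28.8 to 41.0 in B2D, with a log2 fold change of 0.12 (adjusted p = 0.618 by limma) and only B2D 4 above the controls.

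The proportions of the 3 subunits did not pass a test between the diets. With fenofibrate the ratio of Dld to Dlst was 1.04 in Ctrl+FF and 1.07 in B2D+FF (geometric means), that of Dld to Ogdh 0.846 and 0.852, and that of Ogdh to Dlst 1.23 and 1.25. Exact permutation p-values were 0.629, 0.943 and 0.857 for these ratios with the drug and 0.389, 0.230 and 0.619 without it, and the differences of the mean log2 ratio were between -0.16 and 0.07 in the 2 experiments. These p-values do not show that the proportions were equal.

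Suclg1 encodes the alpha subunit of succinyl-CoA ligase, the step of substrate-level phosphorylation (ENSMUSG00000052738, chromosome 6, 73248382 to 73276911, plus strand). Its FPKM was 67.2, 86.0, 70.9, 79.1 and 68.8 in Ctrl and 53.0, 58.6, 57.7, 81.8 and 63.5 in B2D. Here 4 of the 5 B2D mice lay below every control and B2D 4 lay high in the control range, with a log2 fold change of -0.25 (95% interval -0.53 to 0.03, limma adjusted p = 0.326). With fenofibrate it was 78.01, 77.3, 78.01 and 66.7 in Ctrl+FF and 94.1, 73.5, 91.1 and 105 in B2D+FF, where only mouse 2 fell within the control range. This gave 0.27 ± 0.120 (standard error) on the log2 scale and a limma adjusted p of 0.242. The difference between these effects was 0.51, the largest of the 9 genes, where limma gave a p of 0.0101 before and 0.259 after adjustment.

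Fh1 encodes fumarase, which hydrates fumarate to malate (ENSMUSG00000026526, chromosome 1, 175600374 to 175625635, minus strand). In Ctrl+FF its FPKM was 88.3, 71.2, 91.1 and 75.0, and in B2D+FF 122, 114, 143 and 152. The groups were clearly separate, with means of 81.4 ± 9.78 and 133 ± 17.7 (SD, n = 4 and 4) and differed by 0.70 ± 0.127 (standard error) on the log2 scale, at a limma adjusted p of 0.0182. Without Ctrl+FF 1 the log2 fold change was 0.74 (limma adjusted p = 0.0502) and without Ctrl+FF 2 it was 0.64 (0.0696), both just short of passing, while it passed without any of the other 6 mice. Without fenofibrate Fh1 varied more between Ctrl mice than the other 8 genes did, at 74.9, 108, 146, 102 and 67.4 in Ctrl and 98.0, 117, 97.1, 137 and 107 in B2D. The Ctrl values enclosed all of the B2D values, and the log2 fold change of 0.20 had a limma adjusted p of 0.616. Fh1 overlaps Kmo on the opposite strand, but their exons share 0 bases.

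By level per gene length, Fh1 had the highest mean of the 9 genes in each group and Idh3a the lowest. Fh1 was above Suclg1, the next gene, in 4 of 5 Ctrl, 5 of 5 B2D, 3 of 4 Ctrl+FF and 4 of 4 B2D+FF mice. In Ctrl the mean FPKM ran from Fh1 (99.8) through Suclg1, Ogdh, Idh3b, Dld, Dlst and Idh3g to Cs (18.1) and Idh3a (10.9). Neighbours whose ranges over Ctrl mice overlapped were Fh1 and Suclg1, Ogdh and Idh3b, Idh3b and Dld, and Idh3g and Cs. With fenofibrate Idh3b stood above Ogdh in all 8 mice, at 64.7 against 42.3 in Ctrl+FF and 78.9 against 54.4 in B2D+FF. Single mice were high or low for many of the genes at once. B2D 4 was the highest B2D mouse for 8 of the 9, B2D+FF 4 the highest of its group for 7 and B2D+FF 2 the lowest for 6.

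The direct test of the difference between the diet effects, in 1 limma fit of all 18 libraries, called 0.228% of 11862 genes at an adjusted p under 0.05 and 0 of the 9 cycle genes. An unadjusted p under 0.05 with a larger effect under fenofibrate was found for 4 of the 9 (Idh3a, Idh3b, Dld and Suclg1) and for 6.69% of all genes. Its value was above 0 for 9 of 9, against 52.4% of all genes. Among genes with a mean of at least 5 FPKM, it was above 0 for 3244 of 4947. The difference was 0.47 for Idh3a (adjusted p = 0.161), 0.37 for Idh3b (0.372), 0.31 for Dld (0.411) and 0.50 for Fh1 (0.446), all in log2 units by limma.

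RefSeq promoter windows of GRCm38.p6, from 250 bases before to 50 bases after a start, were found for 8 of the 9 genes, as 13 windows. Of these windows 6, several overlapping, belong to Ogdh, which so had more chances of a match. Letters of 7 motifs were searched on both strands and counted by gene. CCAAT, the box bound by NF-Y, was in at least 1 window of 5 of the 8 genes (Cs, Idh3b, Ogdh, Dld and Fh1) and of 41.1% of 27025 genes. GCGCNTGCG, for NRF1, was found for 3 (Idh3g, Ogdh and Dld; 7.12% of genes) and CCGGAAG, for GABP and other ETS factors, for 3 (Idh3b, Idh3g and Dlst; 9.93%). AAGGTCA, for ERR, and TGACGTCA, for CREB, were each found for Ogdh alone (5.38% and 2.03% of genes), in 1 and 3 of its windows. The PPARα element, a repeat of AGGTCA with 1 base between that shares those letters with the ERR motif, and TGATGNAAT, for ATF4, were in no window of these genes and in those of 0.0481% and 1.08% of all genes. The 120 bases that end just before the start are shown for Fh1, which passed the test, for Dld, which carries FAD, and for Idh3g, which came nearest to passing, all on the minus strand, with the matches of these motifs in capitals.
Fh1 (chr1:175625636-175625755): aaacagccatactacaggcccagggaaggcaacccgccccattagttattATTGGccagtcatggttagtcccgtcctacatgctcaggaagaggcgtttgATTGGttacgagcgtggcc
Dld (chr12:31351472-31351591): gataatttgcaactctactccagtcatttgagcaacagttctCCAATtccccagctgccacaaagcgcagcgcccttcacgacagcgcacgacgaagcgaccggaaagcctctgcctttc
Idh3g (chrX:73786898-73787017): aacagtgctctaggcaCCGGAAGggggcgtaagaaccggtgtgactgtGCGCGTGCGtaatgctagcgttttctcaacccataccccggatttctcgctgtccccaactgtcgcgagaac
The Fh1 stretch holds CCAAT read from the other strand (ATTGG) at 2 positions, the Dld stretch holds CCAAT once, and the Idh3g stretch holds the GABP letters followed by the NRF1 letters. A match is a description of these letters and not a bound site.

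The remaining enzymes of the cycle lay in the same direction with fenofibrate. Of 9 such genes, 2 were higher in B2D+FF and 0 lower, all 9 fold changes were above 0, and the median was 0.31. Mdh2, mitochondrial malate dehydrogenase, which follows fumarase, went from 68.3 ± 5.09 to 112 ± 11.5 FPKM (SD, n = 4 and 4; log2 fold change 0.70, limma adjusted p = 0.00896). Idh2, the NADP-dependent isocitrate dehydrogenase, went from 56.4 ± 2.41 to 87.6 ± 12.4 (0.62, limma adjusted p = 0.0179). Sdha, the FAD-bearing subunit of succinate dehydrogenase, stood at 112 ± 11.7 and 112 ± 14.1 (log2 fold change 0.0016, limma adjusted p = 0.997), while its partners Sdhb, Sdhc and Sdhd had log2 fold changes of 0.32, 0.31 and 0.31 that did not pass. Without fenofibrate 0 of the 9 passed and 5 were above 0, with a median of 0.023.

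Other genes whose products work in complexes with Dld were mixed. With fenofibrate 3 of 12 were higher and 0 lower, and the median log2 fold change was 0.21. Gldc, the glycine decarboxylase of the glycine cleavage system, went from 39.6 ± 2.34 to 59.5 ± 4.11 FPKM (SD, n = 4 and 4; 0.58, limma adjusted p = 0.00989). Pdhx and Dlat, of the core of pyruvate dehydrogenase, had log2 fold changes of 0.42 and 0.39 (limma adjusted p = 0.0294 and 0.0364). Without the drug 0 of 12 passed, with a median of -0.027. Genes that supply lipoate and thiamine to these complexes had 0 calls of 12 tested in either experiment. Their fold changes without fenofibrate were at or below 0 for 11 of 12, with a median of -0.23.

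Among genes that carry pyruvate into mitochondria or control its entry into the cycle, 0 of 7 tested passed in either experiment. Pdk4, the kinase that switches off pyruvate dehydrogenase in fasting, went from 4.62 ± 2.00 to 12.3 ± 5.57 FPKM without the drug (SD, n = 5 and 5; log2 fold change 1.19, limma adjusted p = 0.0687), and from 109.5 ± 30.2 to 208 ± 111 with it (limma adjusted p = 0.422). Of 16 tested genes that carry carbon into or out of the cycle, 3 were higher with fenofibrate and 0 lower, with a median of 0.060. Got1, the cytosolic aspartate aminotransferase, had a log2 fold change of 1.31 (126 to 309 FPKM, limma adjusted p = 0.0179), Pck1, which makes phosphoenolpyruvate from oxaloacetate, 0.84 (542 to 975, 0.0407), and Slc25a11, the oxoglutarate and malate carrier, 0.49 (39.3 to 55.6, 0.0478). Pcx, pyruvate carboxylase, was 193 in Ctrl+FF and 209 in B2D+FF (limma adjusted p = 0.848). None of the 16 passed without the drug.

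**Figure D4:**
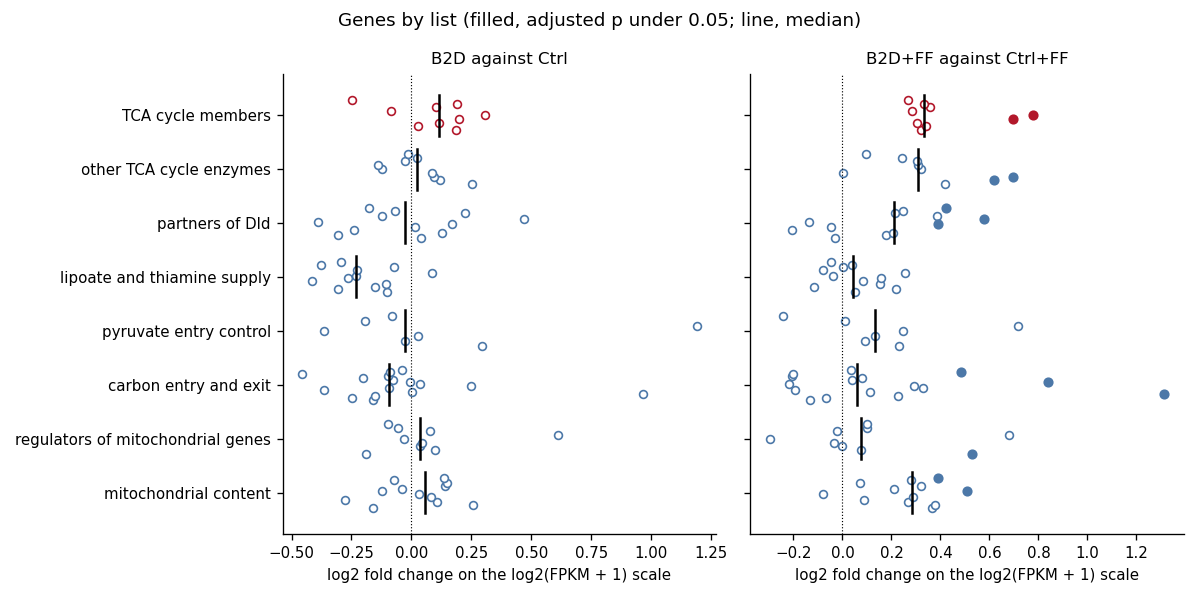
Log2 fold change (horizontal axis, log2(FPKM + 1) scale) of each tested gene in 8 lists around the TCA cycle, without fenofibrate (left) and with it (right), each point a gene, filled where the adjusted p was under 0.05, with the list median as a line. With fenofibrate all 9 TCA cycle genes and all 9 other cycle enzymes lie above 0, and without it no gene of these lists is filled.

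Of 9 regulators of mitochondrial genes, 1 was higher with fenofibrate: Esrra, which encodes the nuclear receptor ERRα, went from 20.2 ± 2.14 to 29.6 ± 1.92 FPKM (SD, n = 4 and 4; log2 fold change 0.53, limma adjusted p = 0.0181). Genes of mitochondrial content were measured beside the cycle genes. Of 12 such genes, 11 had a fold change above 0 with fenofibrate, with a median of 0.28, close to the 0.33 of the cycle genes, and 2 passed, Phb (0.51, limma adjusted p = 0.0333) and Vdac2 (0.39, 0.0397). Their summed FPKM was 939 to 1003 in Ctrl+FF and 1007 to 1323 in B2D+FF, and 758 to 856 in Ctrl and 748 to 955 in B2D. No difference between the cycle genes and mitochondrial genes at large was tested.

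Markers of zones and of other cells were set beside the result with fenofibrate. The 8 periportal genes summed to 1490 to 2047 FPKM in Ctrl+FF and 2269 to 3320 in B2D+FF, which do not overlap. Of the 8, 2 were higher, Pck1 (mean 542 to 975) and Ass1 (656 to 1101), which have the highest means of the list. In all, 6 were above 0 and 2 below. Cyp2f2 went the other way, from 209 to 130 (log2 fold change -0.72, limma adjusted p = 0.0871), with every B2D+FF mouse below every control. The 8 pericentral genes summed to 5989 to 7435 and 4863 to 7608, and 1 of 8, Rgn, was lower. Fat markers summed to 107 to 124 in Ctrl+FF and 131 to 289 in B2D+FF, with Cidec higher and Cfd lower, while the defining fat cell gene Adipoq was at most 2.47 in Ctrl+FF and 0.128 in B2D+FF. Of the 9 hepatocyte markers 0 passed, 7 were above 0 and 2 below (median 0.062). Their sums were 22153 to 25457 and 19443 to 22341, and Alb, the highest of them, went from a mean of 15529.5 to 12138.5 FPKM. Endothelial markers summed to 34.5 to 42.0 and 31.2 to 46.3, with Lyve1 alone higher (log2 fold change 0.77, limma adjusted p = 0.0294) and 7 of 8 below 0. Of the 5 red blood cell markers all were below 0 (median -0.57) and Alas2 was lower (-1.37, limma adjusted p = 9.18e-04), with sums of 437 to 630 and 284 to 690. Of the 9 Kupffer cell markers 7 were below 0 (median -0.30) and 0 passed, with sums of 86.7 to 146 and 57.1 to 143. None of the 6 stellate, 2 bile duct and 2 lymphocyte and neutrophil markers tested passed. The part of these markers, of the greater read depth of several B2D+FF libraries, and of mitochondrial content in the cycle gene result was not tested. In bulk liver, fewer cells of a type and less RNA per cell cannot be told apart.

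Over the 18 mice, after each group's mean was subtracted, the genes most like Dld by Pearson correlation of log2(FPKM + 1), among 4283 protein-coding genes, were Abcg2 (0.897), an efflux transporter, Ndufs1 (0.887), a subunit of respiratory complex I, Mut (0.867), methylmalonyl-CoA mutase, Acadl (0.864), long-chain acyl-CoA dehydrogenase, and Agmo (0.857), alkylglycerol monooxygenase. Within the cycle, Suclg1 (0.571 without fenofibrate and 0.891 with it), Dlst (0.535 and 0.520) and Ogdh (0.461 and 0.476) were positively correlated with Dld in each experiment. The others differed between the experiments, at 0.530 and -0.379 for Cs, 0.310 and -0.0306 for Idh3a, 0.119 and 0.758 for Idh3g, 0.142 and 0.8003 for Idh3b, and 0.037 and 0.811 for Fh1, with 10 and 8 mice. These values describe mice that share libraries and scaling with both genes of a pair, and they carry no test.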

How the data were processed

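Liver RNA-seq of 18 mice was analysed. From paired-end mRNA libraries, the authors mapped reads to mm10 with STAR, counted them by featureCounts, used DESeq2, and deposited a table of FPKM per experiment (called RPKM in the methods). The FPKM times gene length and the library size the authors had divided by gave whole reads in 100% of values (tolerance 0.01), and each table had been scaled on its own. That library size was not the total of reads on genes. It followed the median over genes of each library's ratio to the geometric mean of its table. Whether counting used strand is not given in the sources used here.

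limma 3.58.1 (R 4.3.3, with a trend) was run on log2(FPKM + 1) of genes with a mean of at least 0.5 FPKM, each table alone, with Benjamini-Hochberg adjustment over all genes tested and a threshold of 0.05. This scale understates changes of low genes. Ratios within complexes were compared by exact permutation over mice. The limma fits, with voom, were checked on simulated data, and the permutation test of ratios was not. The members, the lists and the rules were chosen with earlier results of these data known. Named besides the 9 members are list genes past the threshold (at most 4 a list and comparison), succinate oxidation genes, Pdk4 and Pcx, marker genes in each sum, the genes overlapping a member's, and the 5 genes most like Dld. Intervals cover 95%, and 0 table columns went unmapped. Metabolites and protein were not analysed here.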

Additional observations from a re-analysis of the deposited data

Results flagged for a closer look

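Of 60 sets of 4 or 5 mice tested (9 genes and 6 ratios in 4 groups), 2 held a mouse apart from the rest by Dixon's 95% limit, where chance gives about 1 in 20. Suclg1 was 66.7 FPKM in Ctrl+FF 4, below the 77.3 to 78.01 of the other Ctrl+FF mice. The ratio of Ogdh to Dlst was 1.51 in Ctrl 2, below the 1.79 to 1.89 of the other Ctrl mice.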

How the results depend on the processing

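Settings tried were a pseudocount of 0.1, no filter, a mean of at least 5 FPKM, upper-quartile rescaling, quantile normalization, array weights, voom on recovered reads, all 4 groups in 1 fit, unadjusted p-values and each mouse left out. Idh3a with fenofibrate passed in all 17 alternatives (0.72 to 0.85) and Fh1 in 15. These include the unadjusted p, which a gene past the adjusted threshold always passes. For Fh1 the limma adjusted p was 0.0457 with no filter and 0.0499 with all 4 groups in 1 fit. Without fenofibrate, genes past the threshold numbered 313, against 67 with no filter, 207 with upper-quartile rescaling, 731 with all groups in 1 fit, 2124 unadjusted and 98 to 332 with a mouse left out (fewest without Ctrl 4), and members numbered 1 unadjusted and 0 with any mouse left out. With fenofibrate the 529 genes became 272 with no filter, 885 with array weights, 2519 unadjusted and 175 to 596 with a mouse left out (fewest without Ctrl+FF 1), and the 2 members became 4 with quantile normalization, 5 with array weights, 3 with voom or a mean of at least 5 FPKM, 7 unadjusted and 1 to 3 with a mouse left out, with 1 without Ctrl+FF 1 or Ctrl+FF 2. For the difference, the 27 genes became 16 with a pseudocount of 0.1, 136 with array weights, 13 with voom, 1411 unadjusted and 17 to 66 with a mouse left out, and members numbered 4 unadjusted and 0 otherwise.

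Signs turned for small effects without fenofibrate: Idh3b to 0.0238 with quantile normalization, and Dld to -0.0051 with upper-quartile rescaling, -0.0153 without Ctrl 1, -0.0052 without B2D 3 and -0.0311 without B2D 4 (-0.0311 to 0.0768 with a mouse left out). With a mouse left out, the log2 ratio difference without and with fenofibrate ran from -0.0046 to 0.16 and -0.0465 to 0.10 for Ogdh to Dlst, -0.23 to -0.09 and -0.0732 to 0.0993 for Dld to Ogdh, and -0.15 to -0.05 and -0.0133 to 0.0971 for Dld to Dlst. It ran from 0.35 to 0.50 and 0.50 to 0.64 for Idh3a to Idh3b, 0.14 to 0.30 and 0.39 to 0.57 for Idh3a to Idh3g, and -0.25 to -0.15 and -0.14 to -0.04 for Idh3b to Idh3g. The cause was not tested. No paired analysis was possible because the labels give the groups no shared numbers. With 4 or 5 mice a group, the precision of small effects is limited.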
